A study of Mus musculus with 12 samples.

Results

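Acute phase proteins are plasma proteins that hepatocytes secrete in larger amounts during inflammation. The genes described here lie outside the serum amyloid A and orosomucoid families: Hp, Hpx, Lcn2, Lbp, Cp, Itih3, Itih4, Apcs and Serpina3n encode such secreted proteins, and Socs3 encodes an inhibitor inside the cell. They are 10 of the 54532 mouse genes in the deposited count table, each carried by a single row of that name. They were selected on earlier results of these same liver libraries, so their liver values are given as a description with no test.

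In the classical scheme, interleukin 6 and related cytokines bind receptors that share the gp130 chain (Il6st), JAK kinases phosphorylate STAT3, and STAT3 raises transcription of acute phase genes together with C/EBP factors and, downstream of interleukin 1 and TNF, NF-kB. Socs3 is itself a STAT3 target and shuts the receptor off. Albumin and several other abundant liver proteins are known to move the opposite way and are called negative acute phase proteins.

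The libraries came from liver and subcutaneous fat of male mice given a tail vein injection at 10 weeks of age and then a low-fat diet for 16 weeks. The null mice received an empty adeno-associated virus of serotype 8, and the hHKDC1 OE mice received that virus with full-length human HKDC1, a hexokinase, behind the thyroxine-binding globulin promoter, which drives expression in hepatocytes. Each tissue and vector had 3 libraries, 12 in all. The mice of a group were separate animals in fat, which was not stated for liver, and the strain was not given in the sources used here. Sample titles and the treatment field put hHKDC1 OE replicates 2 and 3 of each tissue in the overexpression group, whereas their descriptions call them knockouts.

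The libraries held 15496019 to 19954971 counts on genes. Human HKDC1, which the vector carries, was not analysed here, so it gave no check of the labels. The mouse gene Hkdc1 had 1 to 8 counts in a liver library and 0 to 7 in a fat library and gave none either. Levels of a gene are given as CPM, its counts scaled to a common library size. The 10 hepatocyte markers, Alb among them, summed to 121840 to 125743 CPM in null liver and 70368 to 93858 in hHKDC1 OE liver, and to 6593 to 12904 in null fat and 3953 to 6133 in hHKDC1 OE fat. In fat, Pck1 at 2177 to 4525 CPM and Cyp2e1 at 870 to 2109 made up a large part of these sums. In null fat against null liver these 2 had log2 fold changes of -1.31 and -3.67, beside -5.38 to -5.87 for the other markers. Between vectors in fat they had -0.25 and -0.46. All 10 markers had a negative log2 fold change in either tissue, with medians of -0.43 in liver and -1.57 in fat, and 0 were called. Their part in the values of the acute phase genes was not tested. Adipocyte markers summed to 20496 to 30599 CPM in fat and to 19.5 to 47.5 in liver. Skeletal muscle markers in fat summed to 15740, 19204 and 453 CPM in null replicates 1 to 3 and to 13746, 940 and 2143 in hHKDC1 OE, and erythroid markers to 532 to 797 and 218 to 393. Their part in the fat values was not tested. Principal components were taken from only the most variable of the genes tested in each tissue. On the first component hHKDC1 OE replicates 1 and 3 of liver lay at 21 and 18. There hHKDC1 OE replicate 2 lay at -5.7, within the null libraries' range of -14.6 to -5.3. In fat the corresponding positions were 44.2 and 46.1 for replicates 1 and 3, -2.2 for replicate 2, and -34.8 to -19.8 for the null libraries. Of 13351 genes tested in liver with edgeR, 0 passed an adjusted p of 0.05 and 927 had an unadjusted p under it. With their own filters, DESeq2 called 93 of 24792 genes, and limma called 3 or 5 of 17817 with a pseudocount of 1 or 0.1. With the replicate number as a block edgeR called 17 liver genes, and without hHKDC1 OE replicate 2 it called 146.

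The stretches before the start of transcription are shown for 5 of the genes, since genes that share an inducer can share promoter letters. RefSeq (GRCm38.p6) gave promoters for 8 of the 10 genes, and Hp and Lbp had no entry. The start is the one RefSeq gives, which for Lcn2 and Socs3 lies 513 and 681 bases inside the gene bounds of the deposited table, and for Apcs and Serpina3n 13 and 21 bases outside them. The 250 bases before that start were searched on both strands for TTCNNNGAA (the STAT core), CTGGGAA (the type II interleukin 6 element), TTNNGNAAT (a C/EBP form) and the NF-kB motif. The searched letters may overlap each other, but no matches in these genes did. Capitals mark the matched letters, and each line runs 5′ to 3′ along the gene's own strand.
Apcs chr1:172895055-172895304, minus strand: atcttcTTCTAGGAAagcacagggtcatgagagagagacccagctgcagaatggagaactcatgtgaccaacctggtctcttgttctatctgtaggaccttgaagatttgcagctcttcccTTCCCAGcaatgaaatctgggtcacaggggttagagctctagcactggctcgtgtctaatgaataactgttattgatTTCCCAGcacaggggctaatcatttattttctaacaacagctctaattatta
Itih4 chr14:30886226-30886475, plus strand: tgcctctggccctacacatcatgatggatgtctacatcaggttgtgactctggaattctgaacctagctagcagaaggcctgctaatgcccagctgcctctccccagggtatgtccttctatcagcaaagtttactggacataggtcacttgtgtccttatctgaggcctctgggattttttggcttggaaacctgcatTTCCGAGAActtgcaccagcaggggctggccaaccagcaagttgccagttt
Socs3 chr11:117969367-117969616, minus strand: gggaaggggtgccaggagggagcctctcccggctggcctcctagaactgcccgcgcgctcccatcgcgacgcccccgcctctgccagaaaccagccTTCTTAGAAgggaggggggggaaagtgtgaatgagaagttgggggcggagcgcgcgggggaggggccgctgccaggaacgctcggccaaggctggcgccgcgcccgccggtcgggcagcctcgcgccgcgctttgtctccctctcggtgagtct
Serpina3n chr12:104406458-104406707, plus strand: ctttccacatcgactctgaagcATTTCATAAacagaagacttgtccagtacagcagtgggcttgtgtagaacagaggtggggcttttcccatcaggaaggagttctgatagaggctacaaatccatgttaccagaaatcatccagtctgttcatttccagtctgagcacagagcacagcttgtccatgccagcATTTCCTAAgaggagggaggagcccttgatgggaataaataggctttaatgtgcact
Lcn2 chr2:32387740-32387989, minus strand: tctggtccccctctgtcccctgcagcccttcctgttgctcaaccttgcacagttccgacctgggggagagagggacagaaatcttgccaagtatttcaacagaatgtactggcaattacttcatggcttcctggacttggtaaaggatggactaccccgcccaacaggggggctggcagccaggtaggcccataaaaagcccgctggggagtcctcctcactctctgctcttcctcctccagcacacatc

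The STAT core was found in Apcs, Itih4 and Socs3, which made 3 of the 8 genes, and in 7.02% of all 32851 promoters. Its first base lay 244 bases before the start in Apcs, 51 in Itih4 and 154 in Socs3. The type II interleukin 6 element was found in Apcs alone of the 8, on the opposite strand, 129 and 52 bases before the start, and in 9.1% of all promoters. The C/EBP form was found in Serpina3n alone of the 8, on the opposite strand, 228 and 57 bases before the start, and in 10.2% of all promoters. The NF-kB motif was found in 0 of the 8 and in 7.25% of all promoters. No searched letters were present in this window of Lcn2, Hpx, Itih3 or Cp.

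Levels per gene length were compared in deposited FPKM, which are fragment counts scaled by gene length and library depth. In null liver the order ran from Hp at 2944 FPKM and Hpx at 2927 through Itih4 at 537, Serpina3n at 295, Itih3 at 256, Cp at 147, Apcs at 84.7 and Lbp at 23.3 to Lcn2 at 5.26 and Socs3 at 3.29. Hp and Hpx overlapped over the 3 libraries, as did Lcn2 and Socs3, and every other pair of neighbours was apart. Null liver therefore held Hp and Hpx as very abundant transcripts and Lcn2 and Socs3 as scarce ones. In null fat the order was Hp at 831 FPKM, Serpina3n at 197, Hpx at 63.7, Lbp at 39.3, Cp at 15.3, Itih4 at 10.9, Itih3 at 6.09, Apcs at 1.89, Socs3 at 1.19 and Lcn2 at 0.546. Only Hp with Serpina3n, Serpina3n with Hpx, Lbp with Cp and Socs3 with Lcn2 were apart among neighbours in null fat. In hHKDC1 OE liver, Lcn2 stood seventh with 190 FPKM, and its libraries ran from 24.3 to 362.

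In liver all 10 genes had a positive log2 fold change in hHKDC1 OE against null. The median over the 10 was 1.33 on the log2 scale, beside 0.01 over all 13351 genes tested. The difference was carried by hHKDC1 OE replicates 1 and 3: together the 10 genes took 0.944% to 1.12% of all counts in the null libraries, and 3.751%, 1.215% and 2.831% in hHKDC1 OE replicates 1, 2 and 3. The 3 hHKDC1 OE libraries all lay above the 3 null libraries for 4 of the 10 genes, Hpx, Lcn2, Itih4 and Apcs, and below them for 0 of 10. Over all genes tested the same held for 6.31% above and 6.18% below, and nothing is read from the count because the genes were chosen on this contrast. Between libraries of the same replicate number, hHKDC1 OE read above null in all 3 pairs for Hp, Hpx, Lcn2, Itih3, Itih4, Apcs and Socs3, and in 2 of 3 pairs for Lbp, Cp and Serpina3n. Without hHKDC1 OE replicate 2, 8 of the 10 genes lay above (all but Lbp and Socs3), beside 13.7% of all genes, and without null replicate 3, 7 of 10 did, beside 12.5%. Nothing is read from these counts either, since the genes were chosen on this contrast. In bulk RNA, fewer cells of a type and less RNA per cell cannot be told apart, here and in the results that follow.

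**Figure D1:**
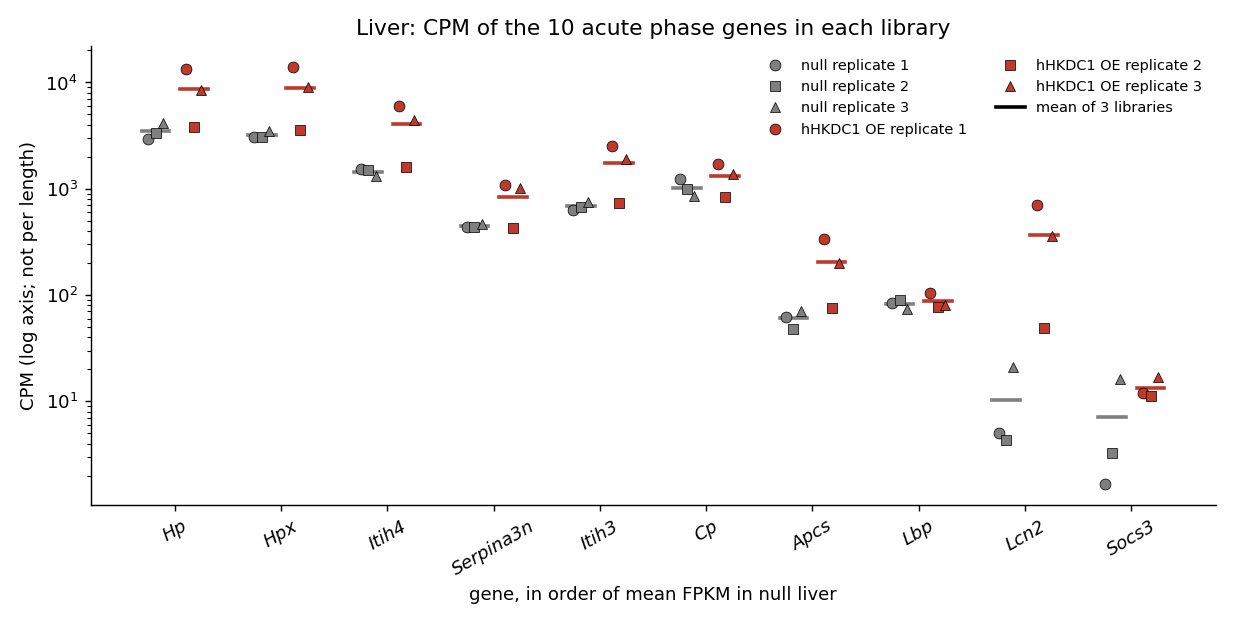
CPM on a log axis for each of the 10 genes in the 6 liver libraries, with grey points for null, red points for hHKDC1 OE, a marker shape for each replicate and a bar at the mean of 3 libraries. Red circles and triangles (hHKDC1 OE replicates 1 and 3) sit above the grey points for all genes but Lbp and Socs3, and the red squares (replicate 2) sit close to them except for Lcn2.

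The scavengers of free haem and haemoglobin come first. Hp (haptoglobin, chr8:109575128-109579172), which binds haemoglobin released from red cells, read 2909, 3332 and 4185 CPM in null liver and 13507, 3792 and 8577 in hHKDC1 OE replicates 1, 2 and 3. Its replicate 2 lay within the null range, so the groups overlapped, and the log2 fold change was 1.31 (SE 0.40, n = 3). Hpx (hemopexin, chr7:105591613-105600137), which binds haem, read 3094, 3087 and 3473 CPM in null and 14046, 3589 and 9089 in hHKDC1 OE. Replicate 2 stood just above the highest null library and the groups did not overlap, with a log2 fold change of 1.47 (SE 0.41, n = 3). Hp and Hpx alone took 2.579%, 0.8% and 1.847% of all counts in hHKDC1 OE replicates 1, 2 and 3, against 0.568% to 0.764% in the null libraries. Erythroid markers summed to 421 to 619 CPM in null liver and 257 to 532 in hHKDC1 OE liver.

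Lcn2 (lipocalin 2, chr2:32384633-32388252) binds the iron carriers of bacteria and is made by hepatocytes, neutrophils and epithelia. It read 5.06, 4.36 and 21.2 CPM in null liver and 700, 48.6 and 358 CPM in hHKDC1 OE liver. All 3 hHKDC1 OE libraries were above all 3 null libraries, and hHKDC1 OE replicate 2 and null replicate 3 were nearest to each other. The log2 fold change was 5.17 (SE 0.97, n = 3), the largest of the 10, and each hHKDC1 OE library alone stood 68.6-, 4.76- and 35.0-fold over the null mean. Leaving out hHKDC1 OE replicate 1 lowered it to 4.31, and leaving out null replicate 3 raised it to 6.29. Neutrophil markers summed to 1.3 to 5.7 CPM in null and 1.7 to 7.75 in hHKDC1 OE liver, and Ly6g had no counts in 5 of the 6 libraries. The part of neutrophils in the Lcn2 difference was not tested.

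Itih3 and Itih4 encode secreted plasma proteins of the inter-alpha-trypsin inhibitor heavy chain family. Itih3 (chr14:30908572-30923760) read 624, 677 and 748 CPM in null liver and 2540, 737 and 1907 in hHKDC1 OE, a log2 fold change of 1.34 (SE 0.37, n = 3). Itih4 (chr14:30886476-30902353) read 1539, 1491 and 1322 CPM in null and 6025, 1613 and 4440 in hHKDC1 OE, a log2 fold change of 1.47 (SE 0.40, n = 3). In both, replicates 1 and 3 were far above the null libraries and replicate 2 was beside them, inside the null range for Itih3 and just above it for Itih4. The related chains Itih1 and Itih2 had log2 fold changes of 0.29 and -0.12 in the same fit, with adjusted p of 0.826 and 0.941.

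Apcs (serum amyloid P component, chr1:172893961-172895041), a pentraxin that marks debris and microbes for removal, read 62.7, 47.5 and 70.6 CPM in null liver and 338, 76.1 and 202 CPM in hHKDC1 OE. The groups did not overlap and the log2 fold change was 1.77 (SE 0.44, n = 3). Crp, the other short pentraxin, had a log2 fold change of 0.10 with an adjusted p of 0.962. Lbp (lipopolysaccharide binding protein, chr2:158306493-158332852) hands bacterial lipopolysaccharide to its receptors. It read 84.4, 88.9 and 73.5 CPM in null and 105, 77.7 and 80.2 in hHKDC1 OE, so that only replicate 1 exceeded the null range, and its log2 fold change was 0.09 (SE 0.16, n = 3). Without that library the log2 fold change of Lbp was -0.06.

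Cp (ceruloplasmin, chr3:19957054-20009145), the copper-carrying ferroxidase of plasma, read 1223, 996 and 861 CPM in null liver and 1718, 831 and 1382 in hHKDC1 OE. Replicate 2 was below all null libraries and replicates 1 and 3 above them, with a log2 fold change of 0.35 (SE 0.27, n = 3). Cp overlaps Hps3 on the opposite strand and the libraries kept no strand. Hps3 had at most 658 counts in any library, while Cp had 13883 to 27947 in liver and 2356 to 4037 in fat. The effect of the overlap on the Cp counts was not tested. Serpina3n (chr12:104406729-104414329), a secreted inhibitor of serine proteases, read 440, 439 and 462 CPM in null and 1080, 427 and 1026 in hHKDC1 OE, a log2 fold change of 0.92 (SE 0.30, n = 3). It belongs to a cluster of near copies: 6.9% of its transcript stretches of 50 bases occur in 7 other genes, so its counts are less certain than those of the other genes, of which at most 0.187% were shared. Serpina3m and Serpina3g of that cluster had log2 fold changes of -0.26 and -0.20.

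Socs3 (chr11:117966079-117970047) was scarce and followed another order. It read 1.67, 3.26 and 16.3 CPM in null liver and 11.9, 11.2 and 16.9 CPM in hHKDC1 OE. Null replicate 3 lay within the hHKDC1 OE range and null replicates 1 and 2 lay below it, and the log2 fold change was 0.91 (SE 0.65, n = 3), which became 2.44 without null replicate 3 and 0.45 without null replicate 1. Blocking on replicate number gave 1.43, and the differences between libraries of the same number were 2.84, 1.78 and 0.05 on the log2 scale. That same null library had the highest Lcn2 of its group.

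**Figure D2:**
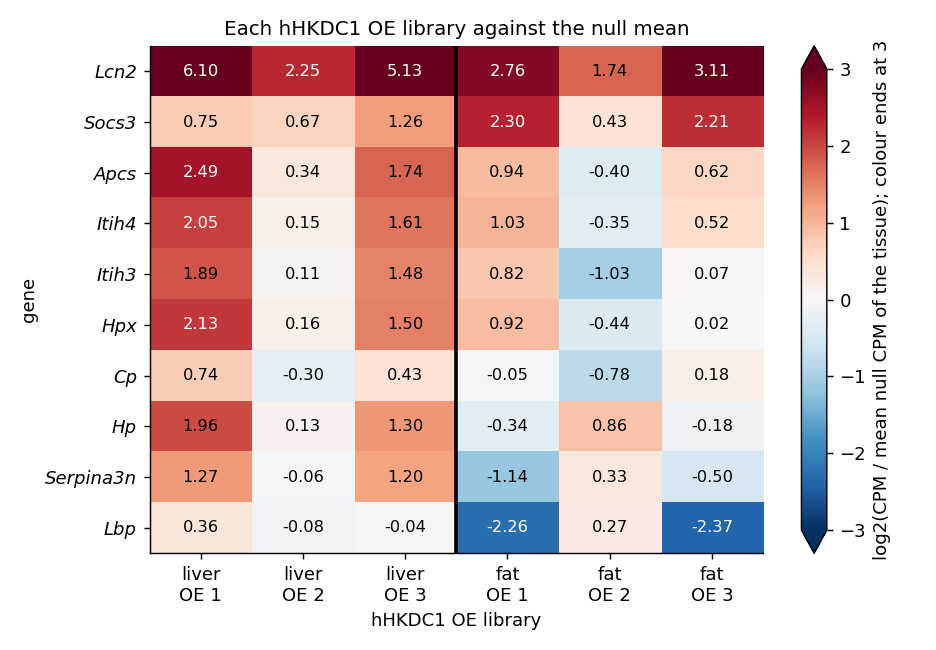
Colour and number give the log2 ratio of each hHKDC1 OE library's CPM to the mean CPM of the 3 null libraries of its tissue, with a row for each gene and columns for liver and fat replicates 1 to 3 (colour ends at 3). In liver, replicate 2 lies between -0.30 and 0.67 for every gene but Lcn2 at 2.25, and in fat replicate 2 has the opposite sign to replicates 1 and 3 for Lbp, Serpina3n, Hp, Apcs, Itih4, Itih3 and Hpx.

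Over the 6 liver libraries the genes fell into close and loose followers of the set. Pearson's r of each gene with the mean of the other 9 (standardised log2 CPM, n = 6 libraries) was 1.0 for Hpx, 0.996 for Itih3, 0.989 for Hp, 0.987 for Apcs, 0.983 for Itih4, 0.972 for Serpina3n and 0.928 for Lcn2. It was 0.793 for Cp, 0.528 for Lbp and 0.452 for Socs3. These values share the libraries and rest largely on hHKDC1 OE replicates 1 and 3, which stand apart from the other 4, so they describe the pattern and carry no test. The 5 other genes with the pattern most like the mean of the 10 were Calr (r = 0.996), a chaperone of the endoplasmic reticulum, Mfhas1 (0.993), Peg10 (0.991), C4b (0.985), the complement component, and Enho (0.985). Calr read 650 to 669 CPM in null liver and 1066, 666 and 952 in hHKDC1 OE replicates 1, 2 and 3. Enho, which encodes the peptide adropin, read 2.22 to 5.58 CPM in null and 74.1, 7.23 and 32.3 in hHKDC1 OE.

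The rest of the pathway was read from lists, and none of the list genes passed the test in liver in either direction. With the block on replicate number 3 did, Saa1, Saa2 and Orm2, all higher, the smallest adjusted p being 0.00957. Among ligands, 2 of 9 were tested: Il1b at 0.261 to 0.558 CPM in null and 0.8 to 1.91 in hHKDC1 OE (log2 fold change 1.72, edgeR adjusted p = 0.595) and Ctf1 (log2 fold change -0.73, adjusted p = 0.543). Il6 had 0 counts in all 12 libraries, which allows up to 3 counts in each. All 11 receptors and kinases were tested, 6 with a positive and 5 with a negative log2 fold change and a median of 0.04. Il6ra, the interleukin 6 receptor, read 98.9 to 112 CPM in null and 59.7 to 77.0 in hHKDC1 OE (log2 fold change -0.59, adjusted p = 0.458), Tnfrsf1a had a log2 fold change of 0.52 (adjusted p = 0.52) and Il22ra1 of 0.61 (adjusted p = 0.79). Of the 13 transcription factors 7 had a positive and 6 a negative value, with a median of 0.09, and Stat3 read 72.9 to 88.9 CPM in null and 74.6 to 102 in hHKDC1 OE (log2 fold change 0.23, adjusted p = 0.843). Cebpd had -0.42 (adjusted p = 0.788) and Cebpa 0.26 (adjusted p = 0.82). Of the 10 feedback genes and inhibitors 5 had a positive and 5 a negative value, with a median of 0.02, and the smallest p belonged to Pias3 at 0.63 (adjusted p = 0.652), Socs1 at 1.42 (0.834) and Nfkbia at -0.32 (0.865).

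Of 26 other positive acute phase genes tested, 19 had a positive log2 fold change and 7 a negative one, with a median of 0.48. The smallest p belonged to Saa1 (log2 fold change 6.41, adjusted p = 0.149), Saa2 (7.32, adjusted p = 0.163) and Orm2 (5.45, adjusted p = 0.163). Their hHKDC1 OE replicate 2 read 603, 542 and 61.2 CPM, between the null libraries and replicates 1 and 3. Of 12 negative acute phase genes 9 had a negative log2 fold change and the median was -0.33. Alb read 68947 to 75133 CPM in null and 50370, 50318 and 38058 in hHKDC1 OE, a log2 fold change of -0.62 (SE 0.22, adjusted p = 0.613). Here hHKDC1 OE replicate 2 was as low as replicate 1. Serpina7 had -0.65 (adjusted p = 0.685) and Igf1 -0.38 (adjusted p = 0.741). Macrophage and Kupffer cell markers summed to 118 to 176 CPM in null liver and to 303, 182 and 163 in hHKDC1 OE replicates 1, 2 and 3, and all 8 were detected in each library. Of the 8, 7 had a positive log2 fold change, with a median of 0.76, and Cd68, Clec4f and Vsig4 were above null in all 3 hHKDC1 OE libraries. Their part in the liver values was not tested.

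In subcutaneous fat 7 of the 10 genes had a positive and 3 a negative log2 fold change in hHKDC1 OE against null, with a median of 0.25 beside -0.05 over 16380 genes tested. Leaving out null replicate 3 raised that median of the 10 to 0.95, and leaving out null replicate 1 or 2 or hHKDC1 OE replicate 1 brought it to 0.02 to 0.06, where 5 or 6 of the 10 were positive. None of the 10 passed the test in edgeR (adjusted p 0.133 to 0.914), and over all genes 0.0% passed higher and 0.0% lower. Lcn2 and Socs3 were among 2903 genes with an unadjusted p under 0.05, while DESeq2 called 1452 of 29853 genes and limma 1 or 0 of 20375 with a pseudocount of 1 or 0.1. DESeq2 called 2 of the 10, Lcn2 (adjusted p = 7.92e-07) and Socs3 (adjusted p = 0.00324), as did edgeR with no filter on low counts (0.0104 and 0.0451), which called 803 of 29853 genes. The groups did not overlap for these same 2 genes, both higher, beside 12.5% of all genes higher and 10.2% lower. Without null replicate 3, Hpx, Itih4 and Apcs joined them, 5 of 10 beside 17.2% of all genes.

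**Figure D3:**
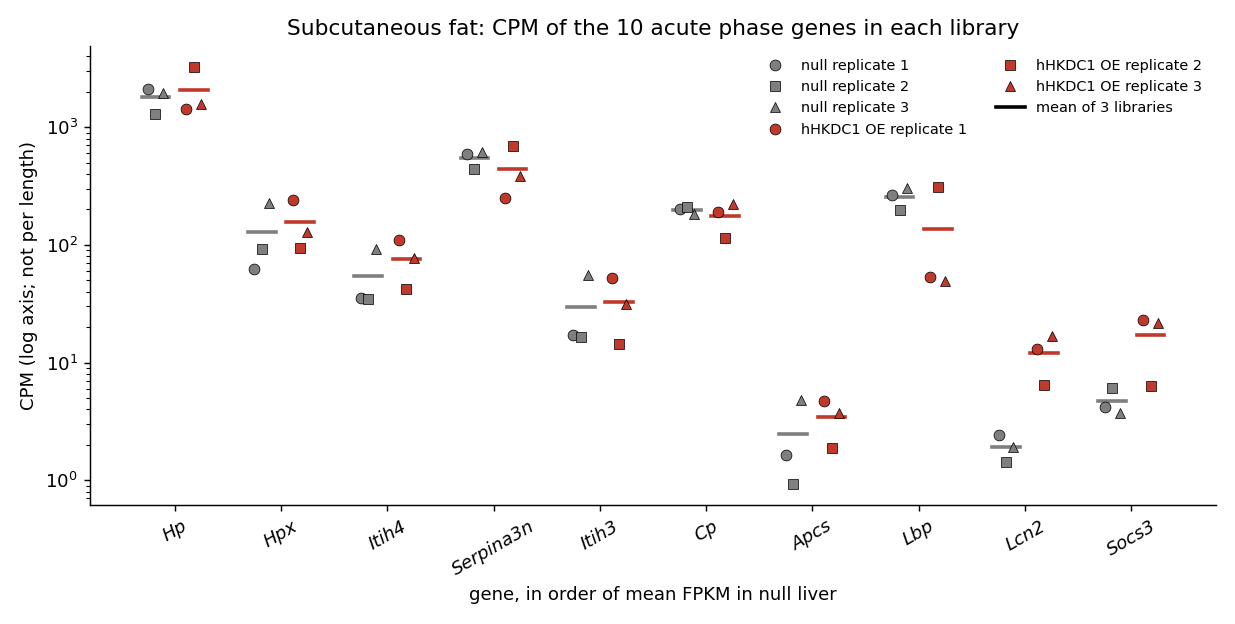
CPM on a log axis for each of the 10 genes in the 6 fat libraries, with grey points for null, red points for hHKDC1 OE, a marker shape for each replicate and a bar at the mean of 3 libraries. Lcn2 and Socs3 at the right have all red points above the grey ones, and the red squares (hHKDC1 OE replicate 2) of Lbp stand at 309 CPM while the other red points are at 53.3 and 49.4.

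In null fat Lcn2 read 2.43, 1.43 and 1.93 CPM, and hHKDC1 OE fat had 13, 6.45 and 16.7 CPM. The log2 fold change was 2.64 (SE 0.43, n = 3) with an edgeR adjusted p of 0.133, and 0.00217 without hHKDC1 OE replicate 2, where 3251 of 17190 genes passed. On the log2(FPKM + 1) scale of limma the difference was 1.41. Over the 15 alternatives the adjusted p of Lcn2 ran from 7.92e-07 to 0.406. Socs3 read 4.20, 6.08 and 3.74 CPM in null and 23.1, 6.31 and 21.6 CPM in hHKDC1 OE, with a log2 fold change of 1.86 (SE 0.51, n = 3, adjusted p = 0.148). Replicate 2 of Socs3 was just above the highest null library, and without it the adjusted p was 0.00306, the lowest of its 15 alternatives, which reached 0.424. Lymphoid and neutrophil marker sums were also higher in all hHKDC1 OE libraries of fat. B cell markers summed to 1.24 to 2.03 CPM in null fat and to 612, 33.4 and 415 in hHKDC1 OE replicates 1, 2 and 3, and T cell markers to 2.79 to 8.24 and to 214, 17.0 and 241. Neutrophil markers summed to 5.39 to 12.4 CPM in null and to 44.0, 21.9 and 25.6 in hHKDC1 OE, and of those 8 genes 3 or 4 were at 0 counts in each null library. Macrophage markers summed to 295, 143 and 318 CPM in null fat and to 422, 406 and 397 in hHKDC1 OE, with all 8 detected in each library. That separation came from Marco, at 0.912 to 1.44 CPM in null and 235, 15.6 and 90.5 in hHKDC1 OE: without it the sums were 294, 142 and 316 against 188, 390 and 307, and 3 of the 8 markers had a negative log2 fold change. The part of these cells in the Lcn2 and Socs3 values was not tested.

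Lbp and Serpina3n had the opposite tendency in fat. Lbp read 268, 196 and 303 CPM in null and 53.3, 309 and 49.4 CPM in hHKDC1 OE, so replicates 1 and 3 were far below the null libraries and replicate 2 just above them. The log2 fold change was -0.90 (SE 0.70, adjusted p = 0.513), and without replicate 2 it was -2.33 with an adjusted p of 0.00153, the lowest of its 15 alternatives, which reached 0.818. Serpina3n read 587, 438 and 621 CPM in null and 249, 690 and 388 in hHKDC1 OE, with a log2 fold change of -0.31 (SE 0.37, adjusted p = 0.672). Without hHKDC1 OE replicate 2 both genes were below the null libraries, beside 25.1% of all genes. Adipocyte markers summed to 22430 to 30599 CPM in null fat and 20496 to 28588 in hHKDC1 OE fat, with replicate 2 the highest of its group at 28588.

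In null fat Hp read 2116, 1301 and 1971 CPM, and hHKDC1 OE libraries had 1416, 3266 and 1590, with a log2 fold change of 0.22 (SE 0.39, adjusted p = 0.779). Its sign turned to -0.27 without replicate 2. Cp read 183 to 211 CPM in null and 115 to 224 in hHKDC1 OE, with a log2 fold change of -0.16 (SE 0.25, adjusted p = 0.745). Hpx, Itih3, Itih4 and Apcs had log2 fold changes of 0.28, 0.14, 0.50 and 0.48, with standard errors of 0.48 to 0.66 and adjusted p of 0.587 to 0.914, and in each of them null replicate 3 was the highest null library. With that library left out Itih4 was at 1.10 and Apcs at 1.38, and the lowest values with another library left out were 0.15 and 0.04. Alb, with 4801 CPM in null replicate 3 against 1741 to 1759 in the other two, had that same order.

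No list gene passed the edgeR test in fat. Of 3 ligands tested, Clcf1, a gp130 cytokine, read 0.669 to 2.67 CPM in null fat against 26.2, 5.18 and 23.0 in hHKDC1 OE replicates 1, 2 and 3 (log2 fold change 3.23, adjusted p = 0.134), while Lif had -0.76 (0.522) and Ctf1 0.05 (0.947). Receptors and kinases had 2 positive and 8 negative values with a median of -0.17, and the smallest p belonged to Tyk2 at 0.41 (adjusted p = 0.246), Lifr at -0.31 (0.38) and Il1rap at -0.50 (0.405). Transcription factors had 4 positive and 9 negative values with a median of -0.20. Cebpd read 62.7 to 93.0 CPM in null and 20.4 to 38.4 in hHKDC1 OE (log2 fold change -1.39, adjusted p = 0.133), Nfkb1 had 0.64 (0.213) and Cebpb -0.52 (0.214). Feedback genes and inhibitors had 8 positive and 2 negative values with a median of 0.74, and the smallest p belonged to Socs1 at 3.07 (adjusted p = 0.137), Ptpn1 at 0.78 (0.167) and Ptpn2 at 1.10 (0.209). In Socs1 and Clcf1, as in Socs3, hHKDC1 OE replicates 1 and 3 were the highest of the 6 libraries. The other positive acute phase genes had 11 positive and 15 negative values with a median of -0.37, among them Saa2 at 6.49 (adjusted p = 0.133), Saa1 at 5.26 (0.133) and Serpina3g at 4.22 (0.135). All 12 negative acute phase genes had a negative value, with a median of -1.55, and the smallest p belonged to Alb at -1.91 (adjusted p = 0.165), Serpina7 at -1.96 (0.235) and Ttr at -1.50 (0.256). The hepatocyte markers, which share Alb, Ttr and Apoa1 with this list, had a median of -1.57 in the same libraries.

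**Figure D4:**
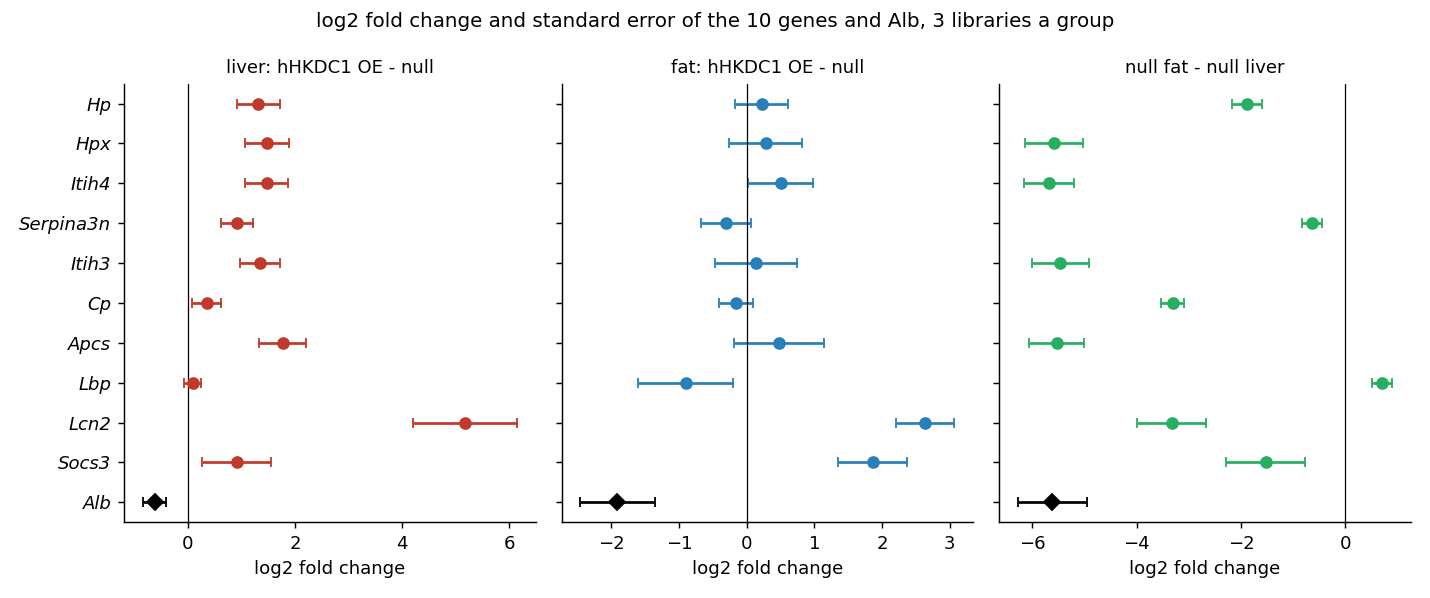
log2 fold change with its standard error for the 10 genes and Alb (black diamond) in 3 panels: hHKDC1 OE against null in liver, the same in fat, and null fat against null liver, with 3 libraries in each group. Lcn2 is farthest right in both treatment panels, and in the tissue panel Hpx, Itih4, Itih3 and Apcs fall at -5.46 to -5.68 beside Alb at -5.62.

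Which of these genes belong to liver and which also to fat was read from the null libraries. In null fat against null liver 9 of 10 genes passed the edgeR test, 8 lower and 1 higher in fat, where 30.5% and 33.8% of 15259 genes tested did so. The median log2 fold change was -3.32, beside 0.09 over all genes. Hpx (-5.58, SE 0.55, adjusted p = 6.77e-05), Itih3 (-5.46, SE 0.55, adjusted p = 7.13e-05), Itih4 (-5.68, SE 0.48, adjusted p = 2.99e-05) and Apcs (-5.53, SE 0.53, adjusted p = 5.81e-05) fell close together, 43.9- to 51.3-fold lower in fat, and at -6.26 to -6.45 on the log2 scale without fat null replicate 3. Lcn2 (-3.33, adjusted p = 0.00265) and Cp (-3.31, adjusted p = 1.08e-05) were 10- and 9.91-fold lower, Lcn2 being at -2.24 without liver null replicate 3 and at -1.76 on the log2(FPKM + 1) scale of limma. Hp (-1.89, adjusted p = 0.000748) was 3.69-fold lower. Serpina3n was 1.56-fold lower (-0.64, adjusted p = 0.0182), and Lbp was 1.63-fold higher in fat (0.70, adjusted p = 0.0125). Socs3 had a log2 fold change of -1.53 with an adjusted p of 0.11, and it ranged from 1.67 to 16.3 CPM over the null liver libraries. Without liver null replicate 3 its value was -0.03. Lbp did not pass without liver null replicate 3 (adjusted p = 0.0533), nor Serpina3n without fat null replicate 1 (adjusted p = 0.0558) or 2 (0.0835), and Socs3 passed without liver null replicate 1 (adjusted p = 0.0322). Over the 15 alternatives the adjusted p ran from 0.000305 to 0.289 for Lbp, 0.00623 to 0.28 for Serpina3n and 0.0322 to 0.963 for Socs3, and it stayed under 0.05 for the other 7 genes, the highest being 0.0206 for Lcn2.

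The scaling shifts all of these differences and bears most on the smaller ones. With library size alone, the median of all genes moved from 0.09 to 0.98 and the split of called genes from 5163 higher and 4647 lower to 9012 and 2286. All 10 genes rose with it, Hpx from -5.58 to -4.67 and Hp from -1.89 to -0.99. Serpina3n then read 0.26, which is -0.72 relative to that median, beside -0.73 with TMM. Lbp read 1.60, or 0.63 relative to the median, beside 0.61. In fat the same scaling moved the median of all genes between vectors from -0.05 to 0.11, and no gene of the 10 changed its sign.

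The upstream genes of the same tissue comparison are given beside the shares over all genes, 33.8% higher and 30.5% lower in fat. Of 11 receptors and kinases 3 were called higher in fat (Osmr at 3.25, Jak2 at 1.18 and Tnfrsf1a at 0.64) and 5 lower, with the lowest values in Il1rap at -4.93, Il22ra1 at -4.71 and Il1r1 at -2.16. Of 13 transcription factors 3 were called higher (Cebpd at 0.72, Nfkb1 at 0.62 and Nr3c1 at 0.55) and 5 lower, among them the hepatocyte factors Hnf4a at -5.49 and Foxa2 at -5.36. Stat3 had -0.06 (adjusted p = 0.753). Of 10 feedback genes and inhibitors 3 were called higher, Tnfaip3 at 2.18 and Pias3 and Ptpn11 at 1.38, and 3 lower, Socs2 at -2.07, Il1rn at -1.81 and Ptpn2 at -0.82. Among ligands Ctf1 was called lower at -1.39. Of 26 other positive acute phase genes 2 were called higher (Cd14 at 1.43 and Steap4 at 0.43) and 21 lower, with the lowest values in Fga at -5.77, Itih2 at -5.76 and Crp at -5.74. All 12 negative acute phase genes were called lower, with the lowest values in Cyp7a1 at -5.96, Serpina7 at -5.86 and Serpina6 at -5.74.

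Fat and liver were also compared by counts beside Alb. Each gene's counts were divided by the Alb counts of the same fat library, and that quotient was divided by its mean in liver of the same vector, so that 1 means the proportion to Alb seen in liver. Over the 6 fat libraries the value was 0.781 to 1.18 for Hpx, 0.911 to 1.26 for Itih3, 0.94 to 1.34 for Itih4 and 0.631 to 1.29 for Apcs. For these 4 genes the fat and liver proportions to Alb overlapped in null and in hHKDC1 OE libraries. The hHKDC1 OE liver mean spans libraries that differ widely: without its replicate 2 the values of hHKDC1 OE fat were 0.676 to 1.01 over the 4 genes, and without its replicate 1 they were 1.08 to 1.7. Hpx, for example, had 35.4 to 53.3 counts per 1000 Alb counts in null fat and 41.2 to 50.4 in null liver, against 200 to 228 in hHKDC1 OE fat and 71.3 to 279 in hHKDC1 OE liver. Alb itself was higher in null fat (1741 to 4801 CPM) than in hHKDC1 OE fat (414 to 1154 CPM), and all 10 hepatocyte markers had counts in every fat library.

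**Figure D5:**
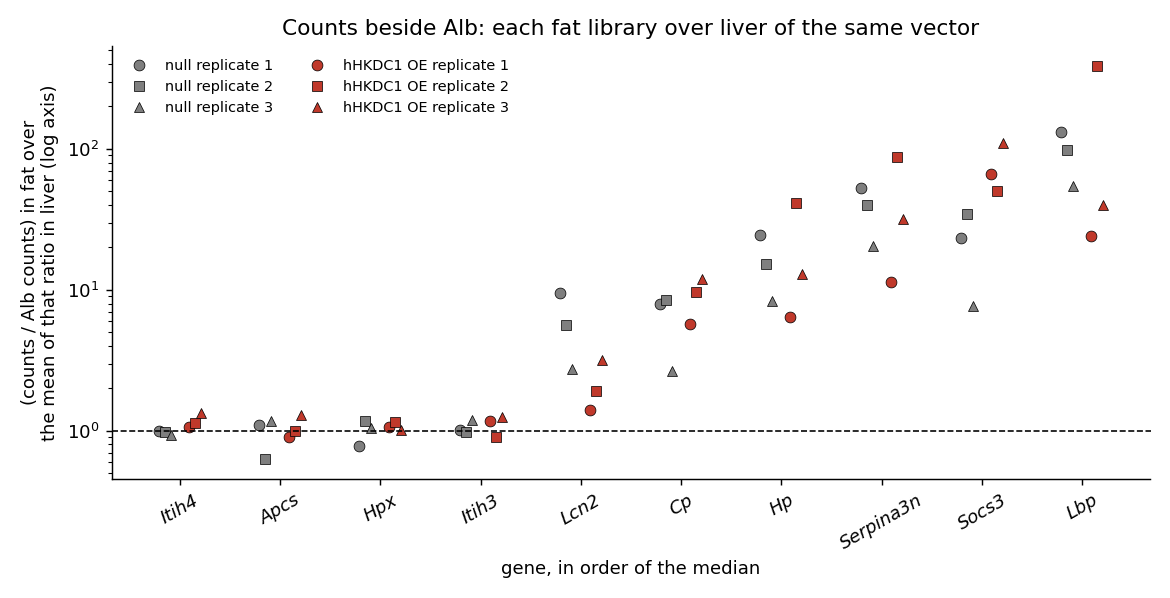
For each gene and fat library, counts per Alb count in fat over the mean of that quotient in liver of the same vector, on a log axis, with grey points for null and red points for hHKDC1 OE. Itih4, Apcs, Hpx and Itih3 gather at the dashed line at 1 (0.631 to 1.34), and the other genes lie above it, up to 390 for Lbp.

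The other 6 genes exceeded the mean liver proportion in every fat library. For Hp, Cp, Serpina3n, Lbp and Socs3 every fat library also lay above every liver library of its vector, whereas Lcn2 did so in null and overlapped in hHKDC1 OE. The range beside the liver mean was 6.47 to 41.6 for Hp, 2.65 to 12 for Cp, 11.4 to 87.9 for Serpina3n, 24.1 to 390 for Lbp, 7.66 to 111 for Socs3 and 1.4 to 9.48 for Lcn2. The null fat values were 7.66 to 34.3 for Socs3 and 2.75 to 9.48 for Lcn2, and leaving liver null replicate 3 out of the mean made them 22.6 to 101 and 6.17 to 21.3. In hHKDC1 OE, Lcn2 had 0.966 to 13.9 counts per 1000 Alb counts in liver and 11.3 to 25.8 in fat. Without liver replicate 2 its fat values were 0.969 to 2.21, so that 5 genes and not 6 exceeded the mean in every fat library. At the mean hHKDC1 OE liver proportion the Alb counts correspond to 197, 68.5 and 85.1 Lcn2 counts in replicates 1, 2 and 3, and 275, 132 and 271 were counted. Socs3 in those libraries had 487, 129 and 352 counts where the liver proportion corresponds to 7.34, 2.55 and 3.17. With Apoa1, Apoa2, Ttr and Fabp1 together in place of Alb, the same 6 genes lay above 1 in every fat library, and Lcn2 again overlapped between the tissues in hHKDC1 OE.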

How the data were processed

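The 10 genes and all gene lists were chosen with earlier results of these data known. Per the labels and the study's methods, the authors mapped reads with STAR 2.5 (the methods name a later release as well) and counted fragments per gene with HTSeq 0.6.1 from libraries that keep no strand. The methods name a human reference, but the deposited counts carry mouse Ensembl identifiers, and the 10 genes have the positions of GENCODE release M21 (GRCm38). The deposited counts are whole numbers without normalization. The deposited FPKM equal counts over gene length and DESeq2 size factors over all 12 libraries (100% of 252371 values above 0 within 1%), so an FPKM depends on the other tissue too. The authors' table of their own fat comparison (fold changes and p-values) was not used.

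Counts were tested with edgeR 4.0.16 (R 4.3.3; glmQLFit, TMM, filterByExpr, Benjamini-Hochberg over all genes tested, adjusted p threshold 0.05) on the 6 libraries of each comparison, after the code was tested on simulated data. CPM use TMM within a tissue. P-values measure the spread between these samples. Alternatives were DESeq2 1.42.0, limma 3.58.1 on log2(FPKM + 1) and log2(FPKM + 0.1), where a gene needed a mean FPKM of 0.1, upper-quartile factors, library size alone, no filter, at least 10 counts per library, the 12 libraries in 1 fit, a replicate block and each library left out. The text names the 10 genes, Alb, Hkdc1, from each list up to 3 genes called in each direction (where none was called, 3 with the smallest p) and the 5 genes most like the 10 in liver. 1 gene that the rule picks is not reported here. A few further relatives of the 10 genes, with Stat3, Il6, Ly6g, Marco, Cd68, Clec4f and Vsig4, were named after their values were seen.

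Replicate numbers come from the sample titles, which do not say that a number marks a shared mouse. In liver the deviations from the group means correlated between libraries of the same number at 0.231, 0.191 and 0.116. Those of different numbers correlated at -0.206 to 0.066, so the numbers were taken to pair these libraries. Intervals and limits from counts cover counting error only.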

Additional observations from a re-analysis of the deposited data

How the results depend on the processing

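The positive log2 fold change of all 10 genes in liver remained under the 9 other settings, and 9 or 10 of them were positive when a library was left out. Genes called in liver, 0 in edgeR, numbered 93 with DESeq2, 2 with library size alone, 327 with no filter, 3 and 5 with limma, 17 with the replicate block, and 0 to 146 when a library was left out (146 without hHKDC1 OE replicate 2). Genes called in fat, also 0, numbered 1452 with DESeq2, 803 with no filter, 876 with the 12 libraries in 1 fit, 1 with limma at a pseudocount of 1, and 0 to 3251 when a library was left out (3251 without hHKDC1 OE replicate 2, 2 without null replicate 3). The cause was not tested. In fat the numbers did not pair the libraries (correlations of 0.031, -0.143 and 0.039 for the same number and -0.238 to 0.302 for different numbers). Between tissues the same-number correlations were 0.271, 0.04 and 0.145, and those of different numbers ran from -0.213 to 0.037. That order was as in liver, but the main fits used no block. The replicate block gave 168 calls in fat and 9938 between tissues beside 9810 without it. The block changed the call of none of the 10 genes in fat or between tissues.

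Leaving out libraries for the count of genes whose groups did not overlap was chosen after seeing the data, and of the 10 genes it gave 4 to 8 higher in liver when a library was left out, 0 lower throughout, and in fat 2 to 5 higher and 0 to 2 lower. Left-out libraries turned the sign in fat of Hp (-0.27 to 0.43), Hpx (-0.19 to 0.97), Itih3 (-0.38 to 0.92) and Cp (-0.37 to 0.06), none of which was called. Between tissues Serpina3n turned to 0.26 with library size alone. With the 12 libraries in 1 fit, Lbp (adjusted p = 0.289) and Serpina3n (0.173) were no longer called, nor was Serpina3n with upper-quartile factors (0.0654) or at least 10 counts per library (0.0514). With no filter Socs3 was called (0.0357). Levels kept their order in all 4 groups with CPM per kilobase in place of FPKM, and 6 genes exceeded the mean liver proportion in every fat library with either reference. Leaving a liver library out of that mean, added after seeing the data, gave 5 to 6 genes with Alb (5 without hHKDC1 OE replicate 2, where Lcn2 fell to 0.969) and 5 to 7 with the other reference (7 without hHKDC1 OE replicate 1, where Itih3 was the seventh). Socs3 and Lcn2 had as few as 23 to 98 counts in null fat libraries, which limits their folds there.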
